A study of Mus musculus with 24 samples.

Results

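Gene desert sites were accessible regions on chr1 to chr19 of the mouse whose peak summit lay outside every annotated gene body and more than 100 kb from the nearest annotated transcription start. Overlapping peaks were merged over libraries, and a region was kept when at least 2 libraries called it. This gave 7209 members of 225336 autosomal regions merged and kept in the same way. Another 74541 regions were intergenic and 2 to 100 kb from a start, and these served as the nearer neighbours for comparison. Of 2885995 autosomal peaks, 72852 met the rule of position. They merged into 19118 regions, of which the 7209 members were kept. The rule used position and the number of calling libraries, not how a peak changed between groups. Just inside the limit the nearest members lay 100001, 100002 and 100003 bp from a start and were called by 3, 2 and 8 libraries. Just outside it the farthest nearer regions lay 100000, 99996 and 99991 bp away and were called by 2, 3 and 9 libraries.

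E14 mouse embryonic stem cells were profiled by ATAC-seq, which maps open chromatin by where a transposase can cut and insert. All 24 libraries came from cells with CTCF fused to an auxin-inducible degron (AID), which lets the auxin IAA trigger degradation of the protein. They formed 12 groups of 2. In the set of CTCF lines, the overexpressed control line had libraries without IAA and with 12 h of IAA. Lines that overexpressed CTCF, in its wild-type form (CTCFwt) or a mutated one (CTCFmut), had libraries with 12 h of IAA only. The Chd4 and Chd8 sets each held shluci, shRNA1 and shRNA2 cells without IAA. The serum set held cells at 0 h and 12 h of IAA. The labels do not say what shluci targets, what the CTCF mutation changes, or whether a line was 1 clone. They give serum for the last set, while the growth protocol names serum-free medium for all libraries. They do not say that the 2 libraries of a group came from separate cultures, so p-values here measure only the spread between these samples. Peak lists do not show how far Chd4 or Chd8 was depleted.

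Gene deserts are long stretches without annotated genes. Some of their open sites are distal enhancers, some bind CTCF, and many lie in or beside copies of repeated elements. CTCF is a zinc-finger protein that, with cohesin, anchors chromatin loops. CHD4 is the ATPase of the NuRD complex, which remodels nucleosomes and deacetylates histones, and CHD8 is a related remodeller. POU factors such as OCT4, a core pluripotency factor of these cells, bind the octamer sequence ATGCAAAT.

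The sequences that the results turn on are shown first. All came from the RefSeq sequence of GRCm38 and are written 5′ to 3′. The first set holds the 5 members with the CTCF consensus that all 4 libraries without IAA in the control line and the serum set called, and that none of the 4 with IAA called. Each stretch is on the strand of the consensus, and capitals mark the bases matched to the 14-letter consensus with at most 1 mismatch. The stretches lie at chr2:116216575-116216648 (plus strand), chr12:9166355-9166428 (plus), chr8:100851196-100851269 (plus), chr14:17402845-17402918 (plus) and chr15:27234911-27234984 (minus). The centre of the match was 205, 62, 205, 69 and 23 bp from the summit.
CTCF consensus match 1: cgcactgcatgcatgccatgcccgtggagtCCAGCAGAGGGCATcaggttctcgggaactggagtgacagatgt
CTCF consensus match 2: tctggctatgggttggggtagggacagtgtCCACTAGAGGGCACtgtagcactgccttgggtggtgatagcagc
CTCF consensus match 3: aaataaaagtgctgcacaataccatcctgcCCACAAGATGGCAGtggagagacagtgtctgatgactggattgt
CTCF consensus match 4: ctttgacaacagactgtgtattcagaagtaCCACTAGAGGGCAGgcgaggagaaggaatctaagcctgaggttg
CTCF consensus match 5: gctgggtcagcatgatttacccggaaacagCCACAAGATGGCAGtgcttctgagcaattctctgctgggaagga

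The second set comes from a family of members with related sequence that libraries with Chd4 shRNA called far more often than shluci libraries. The stretches were taken by mean percentile from members with the octamer that all 4 Chd4 shRNA libraries and neither shluci library called. They are selected examples, as 31 of the family's 164 members had such calls and 106 held the octamer. Capitals mark the octamer, and 60 bases on either side are given. The stretches lie at chr3:158853543-158853670 (minus), chr6:20306418-20306545 (minus), chr16:54133700-54133827 (plus) and chr5:47303384-47303511 (minus).
octamer family 1: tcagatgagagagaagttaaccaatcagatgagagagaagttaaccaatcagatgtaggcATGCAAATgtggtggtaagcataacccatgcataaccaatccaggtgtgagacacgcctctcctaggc
octamer family 2: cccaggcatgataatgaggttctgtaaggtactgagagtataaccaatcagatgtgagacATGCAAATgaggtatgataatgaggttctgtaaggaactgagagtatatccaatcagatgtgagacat
octamer family 3: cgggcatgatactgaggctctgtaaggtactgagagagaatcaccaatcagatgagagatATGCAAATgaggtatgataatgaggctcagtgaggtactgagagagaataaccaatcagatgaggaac
octamer family 4: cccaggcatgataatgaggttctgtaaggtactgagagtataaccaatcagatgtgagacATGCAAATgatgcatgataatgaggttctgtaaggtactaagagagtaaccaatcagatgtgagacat
Octamer family 2 and octamer family 4 were identical at 121 of 128 positions, and each of them at 76 or 75 with octamer family 3. Octamer family 1 shared 36 to 40 positions with the other 3. Positions were compared without gaps, so 1 inserted or missing base lowers the count. These counts thus do not measure how alike the stretches were. Each of the stretches holds ccaatcagatg before the octamer. The third set shows a family that carried the letters AAGATGGC, bound by the zinc-finger factor YY1. Capitals mark these letters. The stretches lie at chr15:45589909-45590036 (plus) and chr12:96511051-96511178 (minus), on different chromosomes, and were identical at 127 of 128 positions.
YY1-letter family 1: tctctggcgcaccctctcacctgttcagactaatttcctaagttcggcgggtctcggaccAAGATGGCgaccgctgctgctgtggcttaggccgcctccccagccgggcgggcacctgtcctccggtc
YY1-letter family 2: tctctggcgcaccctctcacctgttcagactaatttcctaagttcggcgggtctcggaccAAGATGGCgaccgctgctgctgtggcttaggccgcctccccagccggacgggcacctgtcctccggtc

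The members were thinly spread. The 1440 desert stretches held 171 Mb of sequence, 7.13% of the sequenced autosomes, and 42.2 members per Mb, against 94.1 regions per Mb over chr1 to chr19. No member lay in 350 of the stretches. Density ranged from 30.2 members per Mb on chromosome 19 to 54.6 on chromosome 8. The median distance from a start was 146 kb and the largest 626 kb. Of the members, 1680 lay beyond 200 kb and 30 beyond 500 kb. The nearest start belonged to a protein-coding gene for 1136 members (15.8%) and to a pseudogene for 2839 (39.4%).

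Members were shared by fewer libraries than regions elsewhere. Only 2 libraries called 30.6% of members, against 21.8% of the nearer intergenic regions and 20.2% of all regions. All 24 libraries called 224 members (3.11%), against 3.56% of the nearer and 5.47% of all regions. Merged members had a median length of 278 bp, against 387 bp for the nearer and 425 bp for all regions. Members called by 2 libraries had a median length of 129 bp and those called by all 24 one of 1034 bp. A longer merged region is more easily called by a further library, so length and breadth are not independent. After the lists were cut to equal length within each set, 1386 members (19.2%) were called by the Chd4 set alone, against 6.90% of all regions. The CTCF lines alone called 482 (6.69%, against 12.8%), the Chd8 set alone 729 (10.1%, against 8.21%) and the serum set alone 157 (2.18%, against 1.56%). List length differed between sets.

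The best-scored members called by every library were among the strongest peaks of their lists. Calls and values of single members refer to lists cut to the length of the shortest list of their set. Strength is given here as the percentile of the authors' −log10 p within such a list. The member at chr1:114849025-114850266, 370 kb from the start of the pseudogene Gm4854, lay at percentile 99.0 or above in the 24 libraries. The member at chr11:12810859-12812696, 119 kb from Gm22789, lay at 95.8 or above. The third, at chr4:38370831-38371586 and 107 kb from Gm12380, held the octamer and lay between 87.4 and 99.9, with its lowest value in a Chd4 shRNA1 library. Desert peaks as a group were nearer the middle of their lists, with median percentiles of 37.5 to 51.3 over the libraries.

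One desert on chromosome 1, chr1:114064135-115119762, held the 3 members farthest from any start among those called by at least 12 libraries. The farthest, at chr1:114594016-114594558, lay 626 kb from Gm4854 and was called by 17 libraries after the lists were cut. It stood at percentiles 74.7 and 91.8 with shluci of the Chd4 set, 99.7 and 90.7 with Chd4 shRNA1, and 99.9 and 99.5 with shRNA2, against 3.85 to 57.8 in the 11 calling libraries of the other sets. The member at chr1:114557060-114557357 was called by 16 libraries at percentiles of 3.19 to 91.8. The member at chr1:114641215-114642612, 578 kb from Gm4854, was called by all 24 at percentiles of 85.8 to 99.6. Its 501 bp window was 79.4% lower-case letters, which mark repeats in the RefSeq sequence.

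The deserts with most members differed in how their sites were shared. The stretch chr8:100826356-101439707, between the starts of Gm39232 and Gm22223, held 72 members in 0.613 Mb. The next, chr8:127697707-128178224, held 53, and chr8:101639709-102423893 held 50. In that last stretch 1 to 3 members were called in each library of the CTCF lines, 5 and 11 with shluci of the Chd4 set, and 14 to 21 with Chd4 shRNA. Libraries of the Chd8 set called 3 to 9 of them, and serum libraries 2 to 8. A library of the CTCF lines called 47.9% to 49.8% of all regions, one of the Chd4 set 24.5% to 25.4%, one of the Chd8 set 34.8% to 39.2% and one of the serum set 23.5% to 24.4%. The stretch chr12:58369291-58663905, beside the start of Clec14a, held 48 members at 163 per Mb. Its members were called 17 to 25 times per library in the CTCF lines but 2 to 4 times in the serum set, whose lists were shorter. The fifth, chr1:145426692-146320435, held 44.

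The members' sequence was poorer in CTCF consensus and richer in masked repeats than that of other regions. Windows of 501 bp around the summits were compared. Median GC content was 45.7% for members, 47.9% for the nearer and 48.5% for all regions. Lower-case letters made up a median of 28.3% of a member's window, against 17.4% and 12.6%, and at least 50% of the window in 32.2% of members, against 18.7% and 12.1%. The CTCF consensus, on either strand, was in 236 members (3.27%), against 6.48% of the nearer and 5.85% of all regions. In windows placed 5000 bp downstream it was in 0.541% for members and 1.53% for the nearer regions. Lower-case letters had a median of 27.1% in the windows downstream of members, near that of the members themselves, and of 25.1% downstream of the nearer regions.

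Other short motifs were searched on both strands in the same windows. The octamer ATGCAAAT was in 7.42% of members, 5.54% of the nearer and 4.53% of all regions, and in 6.35% of the windows 5000 bp away. The YY1 letters AAGATGGC were in 7.57% of members, against 4.98% and 4.31%. These letters were concentrated in repeats, with 17.1% of the 2322 members of at least 50% lower-case letters and 3.07% of the other 4887. They also lie inside CTCF consensus matches 3 and 5 shown above, so those members count for both motifs. The KLF letters CCCCACCC, of zinc-finger factors that include KLF4, were in 7.52% of members, against 11.2% of the nearer and 11.8% of all regions. The AP-1 letters TGANTCA differed less, at 16.5%, 16.9% and 15.5%. A match gives letters only and does not show that a factor was bound.

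Members shared stretches of sequence. Of the 7209 members, 4805 (66.7%) shared a stretch of 20 bases with another member. Grouping members around the most common 20-base stretches, from sequence alone, gave 7 families with 920 members (12.8%). A CA repeat (169 members) and a GA repeat (67) were simple sequence. The family with the YY1 letters had 171 members on 18 chromosomes, of which 136 held the letters and none the octamer, and its median GC content was 55.3%. A further GC-rich family (55.9%) had 138 members. The octamer family had 164 members on 19 chromosomes, of which 106 (64.6%) held the octamer. How the authors treated reads that map to several places is not given in the sources used here, so calls at members with shared sequence may not be independent.

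Gene deserts took up a larger part of the peak lists in the Chd4 shRNA libraries. The desert share, the percentage of a list's autosomal peaks that met the rule, was 2.35% and 2.75% with shluci. It was 4.27% and 4.24% with shRNA1, and 5.25% and 4.00% with shRNA2. All 4 shRNA libraries lay above both shluci libraries. In bulk cells, a site open in fewer cells and a site less open in each cell cannot be told apart. The means were 2.55% ± 0.280 (SD, n = 2) and 4.44% ± 0.552 (SD, n = 4), a ratio of 1.74. The difference of 1.89 points exceeded the combined spread of the groups of 0.619, with p = 0.0667 in a two-sided exact permutation test, the least that 4 libraries against 2 can give (0.320 after Benjamini-Hochberg adjustment over 24 tests of shares). Leaving out 1 library at a time gave 1.62 to 2.09 points.

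The replicate numbers of this set went with list length, with 135583 to 141742 deposited peaks for replicate 1 and 80619 to 93091 for replicate 2. Within replicate 1 the share was 2.35% with shluci against 4.27% and 5.25%, and within replicate 2 it was 2.75% against 4.24% and 4.00%. The desert peaks also differed in length. Their median was 138 and 139 bp with shluci, 109 and 112 bp with shRNA1, and 97.0 and 107 bp with shRNA2. All peaks of the lists moved likewise, from 134 and 146 bp to between 102 and 112 bp. The part of peak length in the desert share was not tested.

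**Figure D1:**
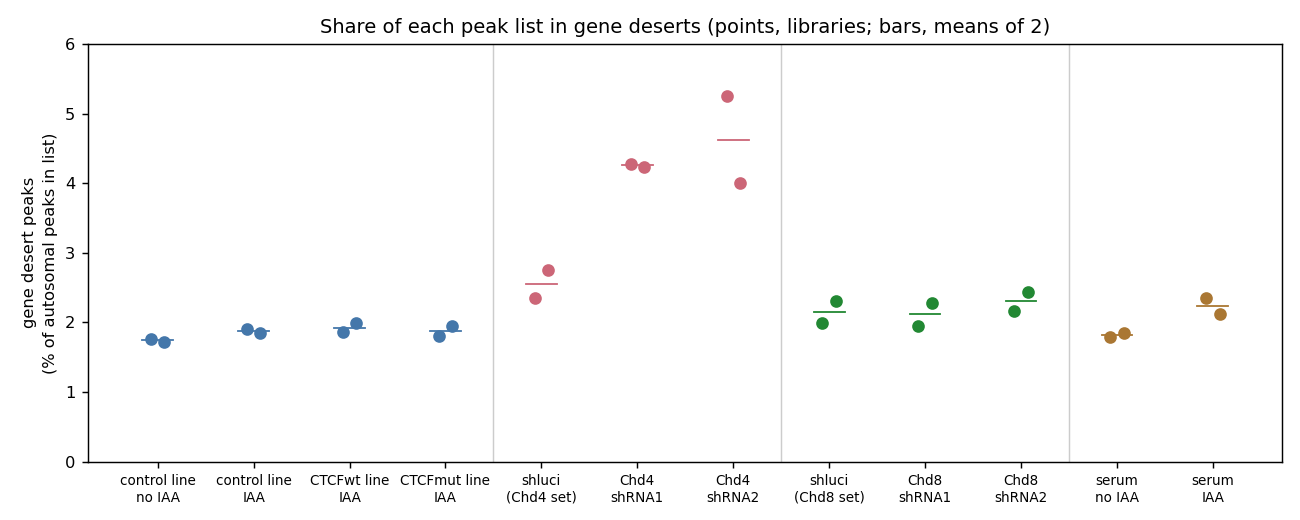
Percentage of the autosomal peaks of each list (y axis) in gene deserts, for the 12 groups (x axis), with 1 point per library and a bar at the mean of 2. The 4 Chd4 shRNA libraries sit between 4.00% and 5.25%, above the other 20 libraries, which sit between 1.72% and 2.75%.

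The difference was graded by distance from a start. At 2 to 10 kb, Chd4 shRNA lists held 0.929 times the shluci share of intergenic peaks, with 8.73% to 8.84% of the list against 9.44% and 9.51%. The ratio was 1.13 at 10 to 50 kb and 1.44 at 50 to 100 kb. It was 1.71 at 100 to 200 kb, with 3.05% to 3.96% against 1.85% and 2.10%. It was 1.86 beyond 200 kb, with 0.949% to 1.29% against 0.503% and 0.645%. The 4 shRNA libraries did not overlap the 2 shluci libraries in any of these 5 classes. Set against the nearer intergenic peaks, there were 8.03 and 9.20 desert peaks per 100 with shluci and 12.4 to 15.2 with shRNA, a measure added after the data were seen.

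**Figure D2:**
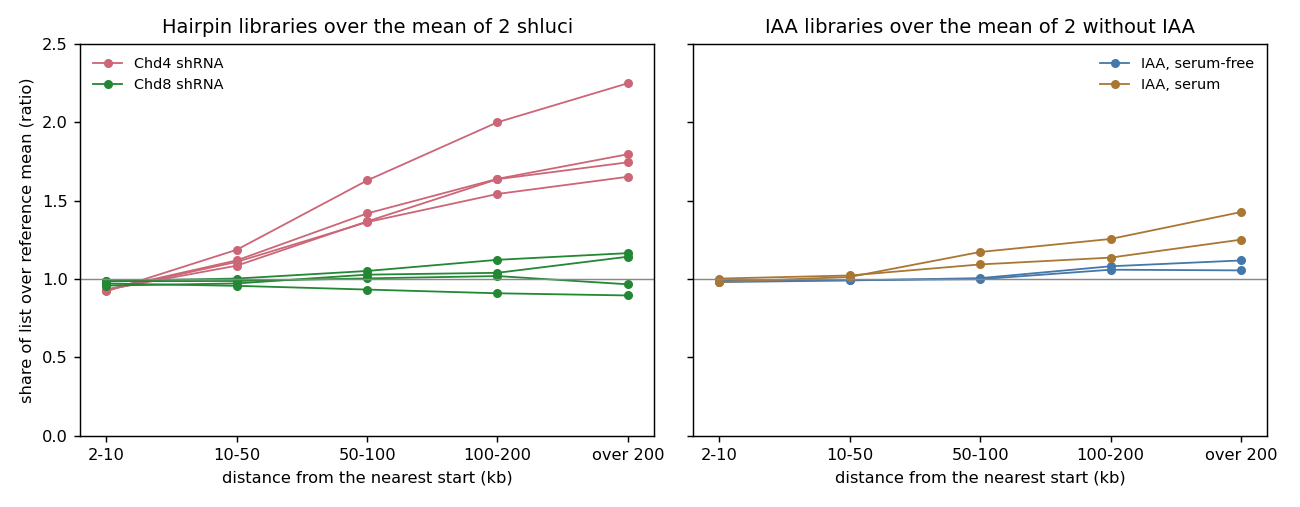
Share of the peak list in 5 classes of distance from the nearest start (x axis, kb), divided by the mean of the 2 reference libraries (y axis, ratio), with 1 line per treated library. Mean ratios with Chd4 shRNA go from 0.929 at 2 to 10 kb to 1.86 beyond 200 kb, and single libraries reach 1.65 to 2.25 there, while Chd8 shRNA libraries lie between 0.895 and 1.17 beyond 200 kb.

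The desert share was also counted on parts of the desert peaks. Counting only desert peaks with under 50% lower-case letters, the share was 1.68% and 1.95% with shluci and 2.73% to 3.83% with shRNA. Without peaks on the 7 sequence families it was 2.22% and 2.55% against 3.65% to 4.85%. The part under 50% still held masked letters. Both counts were added after the data were seen.

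Single members were then compared by calls. A member was lost when both shluci libraries and none of the 4 shRNA libraries called it, and gained when all 4 shRNA libraries and neither shluci library did. With Chd4 shRNA 208 of 5154 members that could be gained were gained (4.04%), against 1.71% of all regions. Of 980 that could be lost, 84 were lost (8.57%), against 11.4% of all regions. Calls in the 4 shRNA libraries alone pass the filter of 2 libraries. Of the 208 gained, 75 were called by no library of the other sets. The gained counts thus describe the members and are no test. Nearer intergenic regions were in between for gain, at 2.24%, and highest for loss, at 12.9%. Leaving out shluci replicate 2 gave 324 gained (5.58%, against 2.43% of all regions), and leaving out shluci replicate 1 or 2 gave 265 or 214 lost (16.2% or 15.3%, against 20.1% for both). With each of the 6 libraries left out in turn, the members' share was above that of all regions for gain and below it for loss. The members were the same in each setting, so this adds no test. Each hairpin alone gave 545 gained members with shRNA1 (10.6%, against 5.18% of all regions) and 523 with shRNA2 (10.1%, against 5.29%). Of 49 members with the CTCF consensus that could be lost, 4 were (8.16%), against 10.7% of all regions with it. When a call needed a peak over at least 50% of the member, 53 members were gained (0.811%), against 0.195% of all regions, and 53 were lost (49.1%), against 67.6%.

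**Figure D3:**
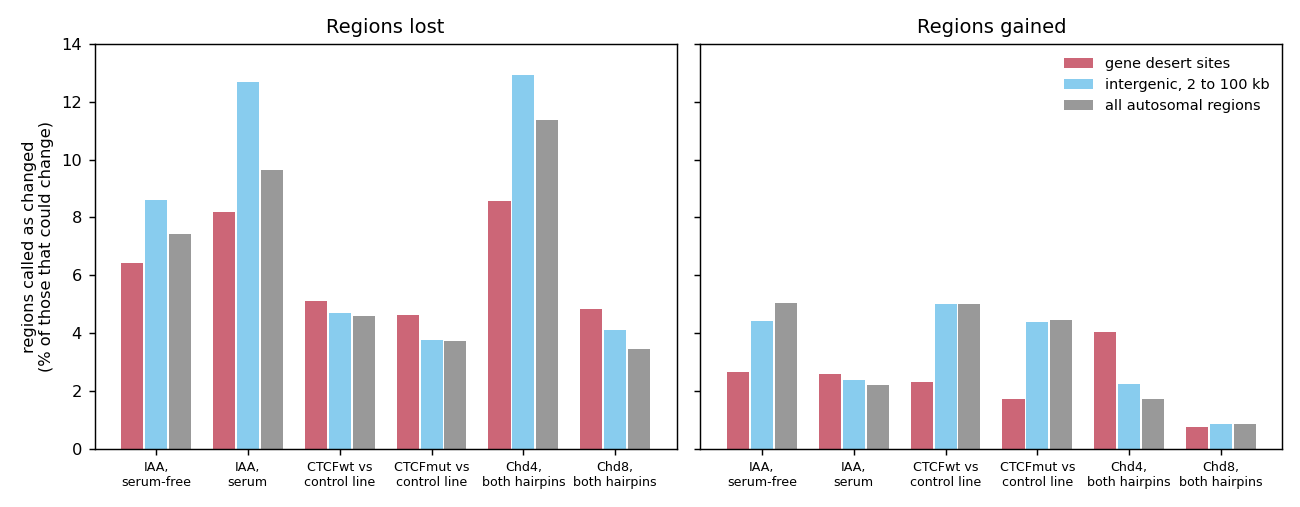
Percentage of regions lost (left) or gained (right) among those that could change (y axis), for 6 comparisons (x axis), for gene desert sites, nearer intergenic regions and all autosomal regions. With both Chd4 hairpins 4.04% of gene desert sites were gained against 1.71% of all regions, and 8.57% were lost against 11.4%.

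The octamer was common among the gained members. It was in 39 of the 208 (18.8%), against 7.31% of the 5154 that could be gained and 7.42% of all members. In 31 of the 208 (14.9%) the member belonged to the octamer family. Outside that family the octamer was in 18 of 177 gained members (10.2%), against 6.09% of all members outside it. Among all autosomal regions gained, 12.2% held the octamer, against 4.40% of those that could be gained. Median lower-case content was 39.9% for the gained members and 29.2% for those that could be gained. Of the 208, 75 were called by no library of the other 3 sets, 117 by a library of the Chd8 set, 72 by one of the CTCF lines and 28 by one of the serum set. The letters CACGTG were in 11.1% of the 208, against 6.44% of those that could be gained, and the KLF letters in 10.6%, against 7.57%. The octamer was also more frequent in members gained with IAA in serum (12.5%, against 7.54%) and with Chd8 shRNA (6 of 34, against 8.16%). It was less frequent in those gained with IAA in serum-free medium (5.34%, against 7.25%), in the CTCFwt line (6.42%, against 7.34%) and in the CTCFmut line (6.25%).

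The octamer family was called mostly in the Chd4 shRNA libraries. Of its 164 members, shluci libraries of the Chd4 set called 12 and 17, shRNA1 libraries 112 and 108, and shRNA2 libraries 102 and 83. Libraries of the CTCF lines called 5 to 10, those of the Chd8 set 14 to 36 and those of the serum set 0 to 4, beside the shares of all regions per library given above. A region needed calls in only 2 libraries to be a member, and the family's median was 3, so members that entered through the Chd4 shRNA libraries had to be called there. No member of the family was lost, but at most 12 could be, as loss needs calls in both shluci libraries. Of all members that could be lost, 8.57% were. The YY1-letter family and the other GC-rich family also had 0 lost. The higher calls with Chd4 shRNA were not confined to gene deserts. Of 1273 regions elsewhere on the autosomes with the same stretches, shluci libraries called 12.3% and 12.8% and shRNA libraries 49.1% to 60.6%. Those regions also needed calls in only 2 libraries, so the same limit holds for them. The family was described after the data were seen, so no test was run.

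The shluci libraries called 1402 and 1633 of all 7209 members (19.4% and 22.7%), and Chd4 shRNA libraries 2224 to 2543 (30.9% to 35.3%), against 24.5% to 25.4% of all regions in the 6 libraries. The 1386 members called by no other set entered through these calls, so these shares describe the members and are no test. Among the other 6 families, 4 were called more often in each Chd4 shRNA library than in both shluci libraries. The CA repeat was called at 27 and 39 of 169 members with shluci, 50 and 53 with shRNA1 and 65 and 51 with shRNA2, while regions elsewhere with its stretches stood at 18.9% to 19.8% in all 6 libraries. The YY1-letter family was called at 9 and 12 of 171 members with shluci, 53 and 51 with shRNA1 and 23 and 36 with shRNA2, and elsewhere at 8.68% and 9.67% with shluci and 17.3% to 29.3% with shRNA. A family of 95 members, 54 of them with the YY1 letters, was called at 15 and 18 with shluci, 37 and 45 with shRNA1 and 30 and 24 with shRNA2. A family of 116 members was called at 16 and 16 with shluci, 34 to 37 with shRNA1 and 23 to 30 with shRNA2, and elsewhere at 16.2% and 16.4% with shluci and 23.5% to 34.1% with shRNA. The YY1-letter family varied as much between replicates elsewhere, with 26 and 93 members called in the 2 shluci libraries of the Chd8 set.

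**Figure D4:**
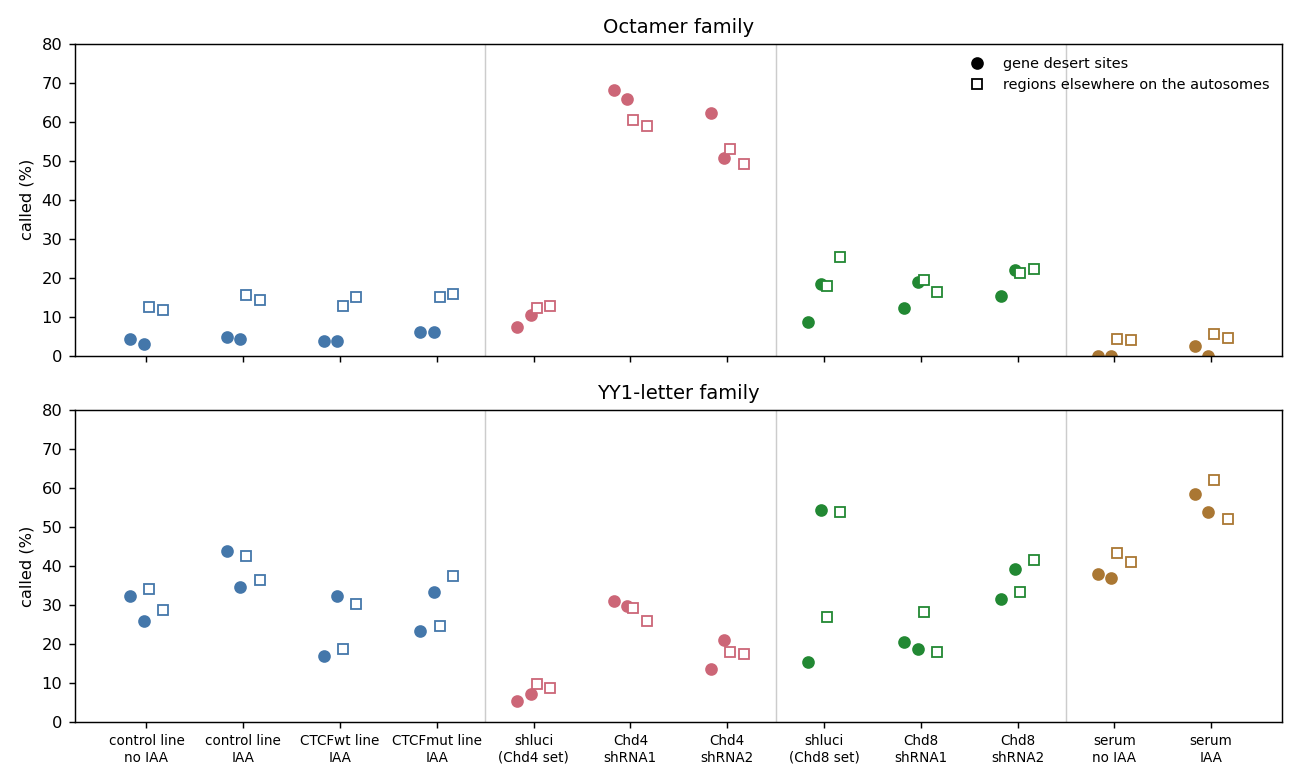
Percentage of each family called (y axis) by library for the 12 groups (x axis), for gene desert sites (filled circles) and for regions elsewhere with the same stretches (open squares). For the octamer family the 4 Chd4 shRNA libraries called 50.6% to 68.3% of gene desert sites and the other 20 libraries called 0.00% to 22.0%.

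By the rule, 2 gained and 2 lost members are named. The gained member with the highest mean percentile, at chr18:58395728-58395907 and 160 kb from Slc27a6, a fatty acid transporter gene, was called at percentiles 92.0, 96.8, 99.3 and 93.9 in the 4 shRNA libraries and in no other. The next, at chr3:158853720-158854088 and 107 kb from Gm9423, lies beside the stretch shown above as octamer family 1. It was called at 98.1, 90.8, 95.7 and 95.3 and in no other cut list, while 6 libraries called it in the deposited lists. The lost member at chr10:125800416-125801195, 166 kb from Lrig3, was called at 82.1 and 81.7 with shluci and by no Chd4 shRNA library. The other 18 libraries called it at 28.1 to 98.0. The lost member at chr4:124053991-124055169, 128 kb from Gm12902, stood at 0.0515 and 72.2 with shluci, so its loss rested on 1 weak and 1 stronger call.

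The CTCF consensus took up less of the desert peaks with Chd4 shRNA. It was in 4.82% and 4.18% of them with shluci, 3.12% and 2.91% with shRNA1, and 3.13% and 3.24% with shRNA2. The shRNA libraries lay below both shluci libraries, and the difference of −1.39 points was larger than the spread of 0.473 (exact permutation p 0.0667, adjusted p 0.320). The number of desert peaks with the consensus was not lower: 89 and 90 with shluci and 97 to 130 with shRNA. The lower percentage thus came with more desert peaks, not with fewer that held the consensus. The nearer intergenic peaks were lower too, at 7.84% and 6.92% against 5.51% to 5.98%. The gap between desert and nearer peaks differed by 0.201 points, less than its spread of 0.235 (exact permutation p 0.200, adjusted p 0.444).

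The desert share did not separate the Chd8 hairpins from their controls. The desert share was 1.99% and 2.31% with shluci, 1.95% and 2.29% with shRNA1 and 2.17% and 2.44% with shRNA2, so the groups overlapped. The difference of 0.0584 points was under the spread of 0.308 (two-sided exact permutation p 0.8, adjusted p 0.873), and it was −0.0371 with the lists at their deposited length. It ranged from −0.104 to 0.220 when 1 library was left out, with the lowest value without shluci replicate 1. The CTCF consensus was in 4.51% and 3.95% of desert peaks with shluci, 4.34% and 4.47% with shRNA1 and 4.32% and 3.91% with shRNA2. That difference of 0.0291 points was under its spread of 0.464 (exact permutation p 1, adjusted p 1). The gap to the nearer intergenic peaks differed by 0.571 points with a spread of 0.429 (exact permutation p 0.200, adjusted p 0.444), and was smaller in 4 of 4 shRNA libraries than the shluci mean although the groups overlapped.

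With Chd8 shRNA 52 of 1077 members were lost (4.83%), against 3.45% of all regions, and 34 of 4486 were gained (0.758%), against 0.845% of all regions. Leaving out shluci replicate 1 or 2 gave 376 or 294 lost members (17.6% for both, against 11.9% and 12.0% of all regions) and 62 or 120 gained ones (1.22% or 2.17%, against 1.84% or 3.13%). Leaving out a hairpin library gave 49 to 70 gained members (1.09% to 1.56%, against 1.39% to 1.87%). Of the lost members named by rank, the one at chr1:75804337-75804798, 168 kb from Gm5257, stood at 38.7 and 37.5 with shluci and at 90.8 to 96.5 in the 8 libraries of the CTCF lines. The one at chr17:4348202-4348826 stood at 50.7 and 55.4 with shluci and at 67.0 to 85.7 in the 4 libraries of the serum set. The gained members at chr19:54787053-54787784 and chr4:29644883-29645440 were called by 17 and 18 of the 18 libraries outside the Chd8 set.

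IAA gave a smaller difference in the desert share, larger in serum. In serum-free medium the share was 1.76% and 1.72% without IAA and 1.90% and 1.85% with IAA. In serum it was 1.80% and 1.85% without and 2.36% and 2.12% with IAA. In both media both IAA libraries lay above both libraries without it. The differences were 0.129 points (spread 0.0471) and 0.415 points (spread 0.174), and 2 against 2 libraries can give no exact permutation p under 0.333, the value of both (adjusted p 0.444). Averaged over the media the difference was 0.272 points, higher in 4 of 4 libraries, with an exact permutation p of 0.0556, the smallest of 36 arrangements (adjusted p 0.320). With desert peaks under 50% lower-case letters alone, it was 0.118 points. The ratio of the shares beyond 200 kb was 1.09 for the serum-free and 1.34 for the serum libraries. The difference between the media was not tested.

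The YY1-letter family and the other GC-rich family were called more often in serum with IAA. Of 171 members of the first, serum libraries called 65 and 63 without IAA and 100 and 92 with it. Of 138 members of the second, they called 68 and 63 without IAA and 90 and 92 with it. Of all 7209 members, serum libraries called 1008 and 1017 without IAA and 1290 and 1192 with it (13.98% and 14.1% against 17.9% and 16.5%), while all regions stood at 23.97% and 23.5% against 24.2% and 24.4%. Regions elsewhere with the same stretches were also called more often with IAA, at 43.2% and 41.0% against 62.0% and 52.1% for the first family, and at 52.3% and 48.6% against 65.4% and 63.4% for the second. In serum-free medium the first went from 55 and 44 to 75 and 59, and the second from 18 and 14 to 20 and 19. All members there stood at 27.7% and 26.8% without IAA and 30.1% and 28.6% with it. Regions elsewhere went from 34.2% and 28.6% to 42.6% and 36.4% for the first family. For the second they stood at 20.7% and 19.7% without IAA and 21.8% and 18.3% with it, so these overlapped. At an equal list length of 59786 peaks, control-line libraries without IAA called 8 and 9 members of the first family, against 63 and 65 in serum without IAA. The sets differed in both medium and line, so these cannot be told apart.

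The CTCF consensus was less frequent in desert peaks after IAA. It was in 4.02% and 4.40% of desert peaks without IAA and 1.98% and 2.40% with IAA in serum-free medium. In serum it was in 5.72% and 6.01% without and 2.11% and 2.19% with IAA. The means were 4.21% ± 0.275 and 2.19% ± 0.302 in serum-free medium, and 5.87% ± 0.207 and 2.15% ± 0.0545 in serum (SD, n = 2 each). No IAA library overlapped a library without IAA in either medium. In points they differed by −2.02 (spread 0.408) and by −3.72 points (spread 0.214), both at p 0.333 by exact permutation. The mean over the media was −2.87 points, lower in 4 of 4 libraries, with an exact permutation p of 0.0556 (adjusted p 0.320). These shares rest on 83 and 89 peaks without IAA and 44 and 52 with IAA in serum-free medium, and on 60 and 65 against 29 and 27 in serum.

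Nearer intergenic peaks held the consensus more often than desert peaks. They held it at 8.12% and 8.15% without IAA and 3.65% and 3.72% with IAA in serum-free medium, and at 13.2% and 12.6% against 4.47% and 4.56% in serum. The gap between desert and nearer peaks was smaller with IAA by 2.43 points in the serum-free and 4.65 points in the serum libraries. Over both media it was smaller by 3.54 points in 4 of 4 libraries (exact permutation p 0.0556, adjusted p 0.320). The ratio of the share with IAA to that without was 0.520 for desert and 0.453 for nearer peaks in serum-free medium, and 0.366 and 0.350 in serum. The difference between these ratios was not tested.

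**Figure D5:**
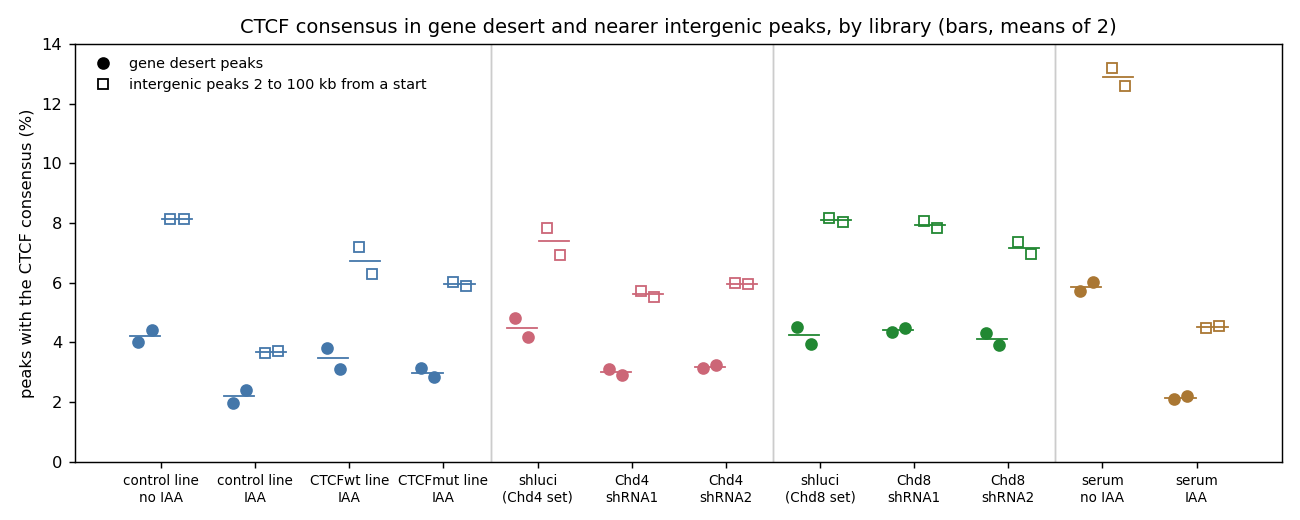
Percentage of peaks with the CTCF consensus within 250 bp of the summit (y axis) by library for the 12 groups (x axis), for gene desert peaks (filled circles) and intergenic peaks 2 to 100 kb from a start (open squares), with bars at the means of 2. Desert peaks with IAA in the control line and in serum sit between 1.98% and 2.40%, and those without IAA between 4.02% and 6.01%.

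Members with the consensus were lost more often after IAA than those without it, at rates near those of all regions. In serum-free medium 106 of 1648 members were lost (6.43%), against 7.42% of all regions. With the consensus 24 of 68 were lost (35.3%), against 36.1% of all regions with it. In serum 60 of 733 members were lost (8.19%), against 9.63%, and 14 of 37 with the consensus (37.8%), against 42.5%. Without the consensus 5.19% of members were lost in serum-free medium, against 5.27% of all regions, and 6.61% in serum, against 5.98%. Of 536 members called by all 4 libraries without IAA, 15 were lost in both media (2.80%), against 3.54% of all such regions. Of the 32 with the consensus 5 were (15.6%), against 21.1%. Leaving out 1 library gave 183 to 239 lost members in serum-free medium (11.1% to 11.96%, against 11.4% to 12.3% of all regions) and 84 to 198 in serum (11.5% to 19.5%, against 13.7% to 18.1%). In each medium the members' share was above that of all regions in 1 of these 4 settings.

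Fewer members than other regions were gained in serum-free medium. With IAA 131 of 4925 members were gained (2.66%), against 5.05% of all regions, and 1 of these held the consensus. In serum 152 of 5917 were gained (2.57%), against 2.21% of all regions, and at deposited list length 224 were (3.87%), against 4.24%. Leaving out 1 library gave 206 to 411 gained members in serum-free medium (3.95% to 8.35%, against 7.71% to 14.8%, and below it in all 4 settings) and 232 to 376 in serum (3.74% to 6.35%, against 3.55% to 5.94%, and above it in 2 of 4).

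The 5 members shown with the consensus were of middle strength before IAA. The first, at chr2:116216012-116216759 and 140 kb from 2810405F15Rik, stood at percentiles 47.3 and 74.3 in the control line without IAA and 60.9 and 74.0 in serum without IAA. It was called in all libraries of the CTCFwt line (61.0 and 26.1), the CTCFmut line (65.0 and 60.4) and both Chd sets. The second, at chr12:9166147-9166752 and 136 kb from Ttc32, a gene for a tetratricopeptide repeat protein, stood at 55.2 and 55.5 without IAA, and 1 library of each overexpressing line called it. The third, at chr8:100850977-100851501, lay in the desert with most members and was called in both CTCFwt libraries (24.4 and 30.2) and no CTCFmut library. The fourth, at chr14:17402850-17403295, lay 258 kb from Thrb, the gene for thyroid hormone receptor beta. Both CTCFwt (29.1 and 35.8) and both CTCFmut libraries (19.1 at the lowest) called it, and no Chd4 shRNA library did. The fifth, at chr15:27234855-27235275, was called in both CTCFwt libraries (40.3 and 43.5) and 1 CTCFmut library (29.4).

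Lines overexpressing CTCF held the consensus in more desert peaks than the control line after IAA. It was in 1.98% and 2.40% of desert peaks in the control line with IAA, 3.82% and 3.12% in the CTCFwt line and 3.12% and 2.85% in the CTCFmut line. Both lines lay above the control line. The differences were 1.28 points (spread 0.577) and 0.796 points (spread 0.359), both at the least p that exact permutation allows here, 0.333 (adjusted p 0.444). The 2 lines overlapped each other, and their difference of 0.483 points was under its spread of 0.529 (exact permutation p 0.667, adjusted p 0.762). Without CTCFwt replicate 1 it was 0.136 points. Desert minus nearer peaks was −3.38 and −3.16 points in the CTCFwt line, −2.89 and −3.04 in the CTCFmut line and −1.67 and −1.31 in the control line with IAA, with no overlap between any of the 3. It differed from the control line by −1.78 (spread 0.297) and −1.47 (spread 0.278) and between the lines by −0.308 (spread 0.188), each with an exact permutation p of 0.333 and an adjusted p of 0.444. The desert share itself did not separate the lines, at 1.86% and 2.00% for CTCFwt and 1.80% and 1.95% for CTCFmut. It differed from the control line with IAA by 0.0529 and 0.00219 points, under the spreads of 0.106 and 0.110 (exact permutation p 0.667 and 1, adjusted p 0.762 and 1), and by 0.0508 between the lines, under 0.143.

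In the CTCF lines 3 lists stood apart in their top score. Control line with IAA replicate 1, CTCFwt replicate 2 and CTCFmut replicate 2 had a highest −log10 p of 450 to 484, and the other 5 lists one of 1744 to 1967. Among the 5, the consensus share of desert peaks differed from the control line with IAA by 1.41 points for CTCFwt and 0.721 for CTCFmut, and among the 3 by 1.14 and 0.871. The IAA difference in this share, without the low-scored library, was −1.81 points. The desert share of CTCFmut against the control line was −0.0445 points among the 5 and 0.0488 among the 3.

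Gains against the depleted control line were fewer among members than among all regions. In the CTCFwt line 109 of 4689 members were gained (2.32%), against 5.0% of all regions, and 12 of 180 with the consensus (6.67%), against 15.7%. In the CTCFmut line 80 were gained (1.71%), against 4.44%, and 8 with the consensus (4.44%), against 11.3%. Losses were slightly above the shares of all regions, with 87 of 1708 (5.09%) against 4.6% for CTCFwt and 79 of 1708 (4.63%) against 3.73% for CTCFmut. These comparisons share the control libraries with each other and with the IAA comparison. Of the 24 consensus members lost with IAA, both CTCFwt libraries called 9 (37.5%, against 45.8% of all such regions) and both CTCFmut libraries 7 (29.2%, against 33.2%). Of the 82 lost members without the consensus they called 34 (41.5%, against 32.4%) and 17 (20.7%, against 24.3%). Leaving out 1 library gave 200 to 328 gained members for CTCFwt (3.89% to 6.995%, against 7.17% to 12.1% of all regions) and 173 to 311 for CTCFmut (3.36% to 6.63%, against 7.28% to 11.9%). It gave 136 to 331 lost ones for CTCFwt (7.96% to 15.3%, against 8.29% to 12.2%) and 156 to 304 for CTCFmut (9.13% to 14.03%, against 7.85% to 10.7%). The members' lost share was above that of all regions in 3 of 4 of these settings for CTCFwt and 4 of 4 for CTCFmut. Their gained share was above it in 0 of 4 for both lines.

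The lists held 59786 to 166697 peaks as deposited, and read depth is not in them. Within a group the 2 libraries shared 39.6% to 72.2% of the members that either called. The label of embryonic stem cells was checked by promoter peaks within 500 bp of a start. Nanog, Esrrb and Tfcp2l1, pluripotency genes, had one in 24 of 24 libraries, Zfp42 and Dppa5a in 22, Sox2 in 18, Klf4 in 12 and Pou5f1 in 6. Of 11 genes of other cell types, Col1a1 of fibroblasts had none, and the other 10, including Pax6 in 24 and Sox1 in 15, had one in 14 to 24 libraries, so a promoter peak does not tell these cell types apart.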

How the data were processed

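Deposited peak lists of 24 libraries on mm10 (GRCm38) were used. Per the submitters' processing notes, the tools were Trim Galore, Bowtie2, deepTools and MACS2. Their roles, versions, options and the treatment of reads with several mappings are not given in the sources used here. In each deposited list the authors' peak caller gives a fold enrichment, a −log10 p, a −log10 q and a summit position per peak. Peaks were listed per library. Read depth and signal between peaks are not used here. In the 2 lists of the serum set with IAA the peak names carry other replicate numbers than the labels, and the labels were followed.

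Within each of 4 sets (CTCF lines, Chd4, Chd8, serum) the lists were cut to the length of the shortest by −log10 p. Summits were placed against GENCODE vM21 basic genes. Peaks of the uncut lists on chr1 to chr19 were merged over libraries, and an overlap of 1 bp called a region. Sequence came from the RefSeq release of GRCm38, and the CTCF consensus of 14 letters was allowed 1 mismatch. Shares were compared by two-sided exact permutation of library labels, with Benjamini-Hochberg adjustment over 24 tests, and the spread is the root of the summed squared SDs of both groups. No design here can reach a p of 0.05. Lost and gained members were counted, with no test. Families joined members that shared a core stretch of 20 bases, and the rule was made after seeing the data. The counting steps were tested on simulated lists.

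The members and lists were chosen with earlier results of these data known. Named members had the highest mean percentile in their class: 5 with the consensus lost with IAA in both media, 3 called by all 24 libraries, and 2 lost and 2 gained in each Chd set. A further 3 were the farthest from a start among those called by at least 12 libraries. The octamer stretches shown came from gained Chd4 members with the octamer, and the YY1-letter stretches from members called by at least 12 libraries. Alternatives were other list lengths, thresholds, distances, overlaps and motif windows, each library left out, and a replicate block. Those added after seeing the data were the masking, family, common-length and top-score variants, the ratio to nearer peaks, and crossed replicate numbers. Python 3.11.15, numpy 2.4.6, pandas 2.3.3 and matplotlib 3.10.9 were used.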

Additional observations from a re-analysis of the deposited data

How the results depend on the processing

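Desert shares, consensus shares and their gaps kept their direction under most settings, and the cause of each exception was not tested. The Chd4 difference in desert share was 1.66 points at deposited list length and 2.06 at a −log10 q of at least 5. Beyond 200 kb the desert share turned for the CTCFwt line (−0.00128) and the CTCFmut line (−0.0116) against the control line with IAA. For CTCFmut it turned to −0.0445 among lists with a high top score. For Chd8 it was −0.0371 at deposited length. The Chd8 consensus share turned at a −log10 q of at least 5 (−1.002), beyond 50 kb (−0.437) and with no mismatch (−0.00400). The gap to nearer peaks turned for Chd4 at that q (−0.919), beyond 50 kb (−0.0290) and within 50 bp of the summit (−0.132), and for Chd8 at that q (−0.409). Leaving out 1 library gave desert share differences of −0.0167 to 0.123 for CTCFwt, −0.0711 to 0.0755 for CTCFmut, −0.0226 to 0.124 between them and −0.104 to 0.220 for Chd8. It gave −0.251 to 0.310 for the Chd8 consensus share.

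Counts of members that moved by more than 1.5 times are given here. Beyond 200 kb, where fewer members could change, 20 were lost (5.81%) and 20 gained (1.66%) with IAA in serum-free medium, 6 (3.77%) and 46 (3.29%) in serum, 23 (6.41%) and 24 (2.11%) for CTCFwt, 17 (4.74%) and 13 (1.14%) for CTCFmut, 20 (9.22%) and 53 (4.37%) for Chd4, and 16 (7.02%) and 9 (0.836%) for Chd8. The shares of all regions are those of the report. At a −log10 q of at least 5, 30 were lost (6.70%, against 9.36% of all regions) and 73 gained (1.13%, against 1.12%) in serum, 44 (11.6%, against 17.98%) and 117 (1.81%, against 0.715%) for Chd4, and 18 (4.36%, against 2.62%) and 10 (0.161%, against 0.272%) for Chd8. With 50% of the member covered, 39 were lost in serum (10.5%, against 10.9% of all regions), 53 were lost (49.1%, against 67.6%) and 53 gained (0.811%, against 0.195%) for Chd4, and 17 lost (26.2%, against 15.4%) and 1 gained (0.0158%, against 0.0433%) for Chd8. That rule did not lower every count: 187 members were gained in serum, against 152. At deposited length 56 were lost (3.18%, against 2.58%) and 186 gained (4.06%, against 8.42%) for CTCFwt, and 134 gained (2.93%, against 7.39%) for CTCFmut. Among members called by at least 4 libraries 32 were lost for Chd8 (3.04%, against 2.62%). Leaving out 1 library gave 183 to 239 lost and 206 to 411 gained with IAA in serum-free medium, 84 to 198 and 232 to 376 in serum, 136 to 331 and 200 to 328 for CTCFwt, 156 to 304 and 173 to 311 for CTCFmut, 107 to 265 and 274 to 324 for Chd4, and 66 to 376 and 49 to 120 for Chd8.

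Correlations of same-numbered deviations were −0.101 to 0.145, and not over 0.1 in every pair of any set, so the numbers were not taken to pair the libraries. In the Chd4 set they still went with deposited list length. A replicate block leaves the differences as they are by construction. The Chd4 difference of 1.89 points then had an exact permutation p of 0.111. Crossed numbers for CTCFmut against the control line left 0.00219 points (exact permutation p 1). Read depth is not in the lists, so a member that a library did not call may still have been open.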
